A study of Drosophila melanogaster with 12 samples.

Results

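The transcripts described here are those whose level was lower after RNAi against Hey in adult female Drosophila melanogaster, both in whole guts and in enteroblasts (EBs) purified from guts. A transcript was kept where the mean of the Hey RNAi arrays lay at least 1 log2 unit (2-fold) below the mean of the control arrays in guts and also in EBs, and where all 3 Hey RNAi arrays lay below all 3 control arrays in each tissue. By this rule 89 of the 15473 transcripts on the array were kept, which is 0.575%. The falls with Hey RNAi therefore chose these transcripts and are given below as a description, with no test.

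The midgut epithelium is renewed by intestinal stem cells, whose daughters, the EBs, mature into enterocytes (ECs), the large absorptive cells that secrete digestive enzymes. Notch signalling drives that step. Hey is a transcription factor of the basic helix-loop-helix class, related to the HES repressors that act downstream of Notch.

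Control guts were Myo-GAL4> UAS-GFP and Hey RNAi guts were Myo-Gal4> dHey RNAi, so that the transgene was driven in ECs while RNA came from the whole gut. Control EBs were dHey-Gal4>UAS-GFP and Hey RNAi EBs were dHey-Gal4>UAS-dHey RNAi, with RNA from the purified cells only. Each of the 4 groups had 3 arrays from separate fly crosses, 12 in all. All flies were raised at 18 °C and spent 2 days at 29 °C, starting at 2 to 4 days of age by the labels, although the methods of the study describe a longer time at 18 °C for the EB flies. The study describes the EB driver as active in progenitors, mostly EBs, and the purified cells as enriched rather than pure. Tissue and driver differ together between guts and EBs and cannot be told apart. In RNA of this kind, fewer cells of a type and less RNA per cell cannot be told apart either.

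Values are log2 intensities, quantile normalized over the 12 arrays. A difference of 1 is 2-fold. The array names its targets by transcript identifiers. The gene reference used paired 17 of these identifiers with 1 gene symbol and 27 with several, and 0 of the 89 were among them. The 89 are therefore described by their measured patterns, without a gene name or a function. Only that reference was used for the matching, and not the supplementary gene lists of the study. For the same reason 0 genes of the 9 lists of cell type markers and pathways were located. Neither the purity of the EBs nor the level of Hey was checked on the arrays. The study did measure the share of labelled cells in its purified populations by FACS, and that share varied between experiments. Replicate arrays correlated at 0.985 to 0.991 in guts and at 0.932 to 0.966 in EBs, and the arrays fell by their deposited mean intensity into 5 sets that agreed within 1%. In every set there was a control array with a Hey RNAi array of the same tissue. With 3 arrays a group, that number limits the precision of every value.

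In guts the 89 transcripts fell by a median of 1.39 log2 units, with changes from -3.83 to -1.001. In EBs the median was -1.89 and the changes ran from -4.66 to -1.01. The medians over all 15473 transcripts were 0.02 in guts and 0.04 in EBs. The quartiles over all transcripts were -0.28 and 0.29 in guts and -0.52 and 0.53 in EBs, so changes in EBs were wider in general. The counts of deeper falls below stand against that wider spread, and their shares over all transcripts were not computed. The EB fall was the deeper one for 56 transcripts and the gut fall for 33. For 42 of them both falls were within 0.5 log2 units of each other. The EB fall exceeded the gut fall by at least 1 log2 unit in 19 transcripts, and the reverse held in 3. A fall of at least 2 log2 units was measured for 20 transcripts in guts, for 39 in EBs and for 14 in both. The sizes of both falls were only loosely related among the 89 transcripts, with Pearson's r = 0.21 and Spearman's rho = 0.11, a description over transcripts that are not independent and that all passed the same limits. The difference between both falls was not tested, since the rule used both.

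**Figure D1:**
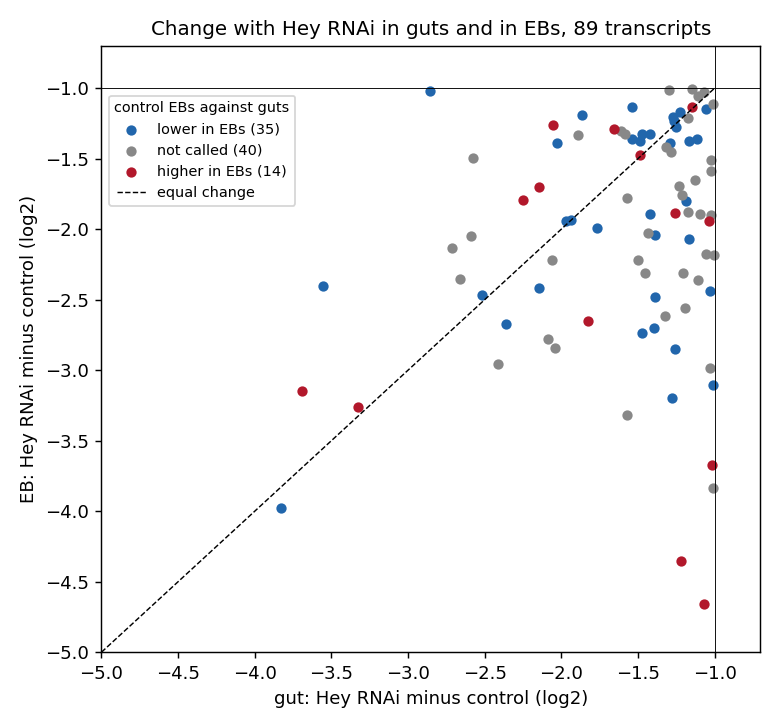
Each point is 1 of the 89 transcripts, placed by its log2 change with Hey RNAi in guts (x) and in EBs (y); the thin lines mark the limit of -1, the dashed line equal changes, and the colours the limma call of control EBs against control guts. Most points lie between -1 and -2 in guts, and 56 of the 89 lie below the dashed line.

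The gut limits of the rule alone were met by 565 transcripts, or 3.65% of all, and the EB limits by 1465, or 9.47%. The 89 are thus 15.8% of the first list and 6.08% of the second. A fall of at least 2-fold in both tissues was found for 126 transcripts, of which 37 were left out because arrays of both genotypes overlapped. A further 514 were lower in both tissues with no overlap but fell under 2-fold in at least 1 of them. Just inside the limit, the weaker of both changes was -1.0006, -1.0069 and -1.0069, and just outside it was -0.9972, -0.9941 and -0.9939. The limit thus cuts through a continuous range of changes.

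The gap between the lowest control array and the highest Hey RNAi array had a median of 0.90 log2 units in guts and 0.83 in EBs. It exceeded 0.5 in both tissues for 61 transcripts and 1 in both for 14. It was under 0.1 for 2 transcripts in guts and for 4 in EBs, so these few were separated by very little.

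The 2 transcripts with the largest fall in their weaker tissue showed opposite tissue patterns. FBtr0081031 was among the brightest in control guts, at 14.60, 14.80 and 13.97, and stood at 12.13, 10.86 and 8.90 in Hey RNAi guts. Its control EBs were at 12.46, 8.42 and 11.55 and its Hey RNAi EBs at 5.39, 7.45 and 7.64. Arrays of both genotypes did not overlap in either tissue, but the replicates were wide apart, with an SD of 2.12 in control EBs. The change was -3.83 in guts and -3.98 in EBs, or 14.2-fold and 15.8-fold lower. On the deposited linear scale its mean intensity was 24218 in control guts, 2450 in Hey RNAi guts, 3021 in control EBs and 155 in Hey RNAi EBs. Control EBs lay below control guts by -3.65 ± 1.06 (SE; limma adjusted p = 0.0176) and Hey RNAi EBs below Hey RNAi guts by -3.80 ± 1.06 (SE; limma adjusted p = 0.0145). Both calls were lost with the array set as a block (adjusted p = 0.0966 and 0.0887). The first was also lost without control gut 1, control gut 2 or control EB 2, at -3.57, -3.46 and -2.46 (adjusted p = 0.0511, 0.0552 and 0.0532). The second was lost without Hey RNAi gut 1 or Hey RNAi EB 1, at -3.03 and -3.16 (adjusted p = 0.0616 and 0.0518). This transcript also left the list under another scaling of the arrays, so its values are among the less firm of the 89.

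FBtr0077115 was higher in EBs. It stood at 10.74, 10.56 and 11.08 in control guts and at 7.80, 7.37 and 7.23 in Hey RNAi guts. Control EBs were at 12.20, 12.14 and 12.09 and Hey RNAi EBs at 10.04, 8.27 and 8.34. Replicates lay close together except Hey RNAi EB 1, which was above the other two of its group. The change was -3.33 in guts and -3.26 in EBs, about equal in both. Control EBs exceeded control guts by 1.35 ± 0.40 (SE; limma adjusted p = 0.0198) and Hey RNAi EBs exceeded Hey RNAi guts by 1.41 ± 0.40 (SE; limma adjusted p = 0.0158). With the array set as a block these were 0.99 and 1.19 (adjusted p = 0.129 and 0.0743), and without Hey RNAi EB 1 the second was 0.86, under 2-fold. The first call was also lost without control gut 1, control gut 2 or control EB 1, at 1.32, 1.22 and 1.31 (adjusted p = 0.057, 0.0675 and 0.0519). The second was lost without Hey RNAi gut 2 or 3, at 1.34 and 1.27 (adjusted p = 0.0513 and 0.0599), and with only the 6 arrays compared (adjusted p = 0.0673).

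The 10 further identifiers named below were chosen after their values were seen, to show the patterns in the 89. FBtr0076704 was close to FBtr0077115 in pattern. It fell from 8.88, 8.78 and 9.27 in control guts to 5.40, 5.33 and 5.13, and from 11.47, 11.20 and 10.81 in control EBs to 7.43, 9.00 and 7.59. In both tissues the genotypes were separated by more than the range within any group.

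The comparison between tissues asks where these transcripts were more abundant before and after RNAi. It was no contrast of the rule, but the rule used the same 4 group means. A fall in guts or in EBs thus already favours a high control level and a low Hey RNAi level in that tissue. The counts over the 89 are therefore set beside those over all transcripts as a description. Only the differences of single transcripts carry a p, but the same bias holds for each of them. The transcripts named above and below were also picked for their falls or after their values were seen. Each p was adjusted over all transcripts but not for these choices. It sets a difference against its spread as a description and is no independent test. In controls, 35 of the 89 (39.3%) were lower in EBs than in guts, against 13.7% of all transcripts, and 14 (15.7%) were higher in EBs, against 15.7% of all (limma, Benjamini-Hochberg adjusted over all transcripts, at least 2-fold). The other 40 passed in neither direction. The median difference, control EBs minus control guts, was -0.84 over the 89 and 0.21 over all transcripts. With each array centred on its median in place of quantile normalization, the median over all transcripts moved to 0.63 and that of the 89 to -0.66, and 29 of the 89 were lower in EBs, against 11.1% of all, and 15 were higher, against 26.2% of all. How the count of higher transcripts stood to that of all transcripts thus changed with the scaling.

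After Hey RNAi, 47 of the 89 (52.8%) were lower in EBs than in guts, against 15% of all transcripts, and 10 (11.2%) were higher, against 16% of all. The median difference was -1.08 over the 89 and 0.19 over all. Of the 35 transcripts lower in control EBs, 32 were also lower in Hey RNAi EBs and 3 were not called. Of the 14 higher in control EBs, 10 were also higher in Hey RNAi EBs and 4 were not called. Of the 40 with no call in controls, 15 were lower in Hey RNAi EBs and 25 were again not called. None was called in opposite directions in both genotypes. How often calls carried over among all transcripts was not computed. The difference after Hey RNAi is that in controls plus the EB change minus the gut change, and the rule used both changes. The counts after Hey RNAi therefore also reflect the deeper EB falls given above.

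**Figure D2:**
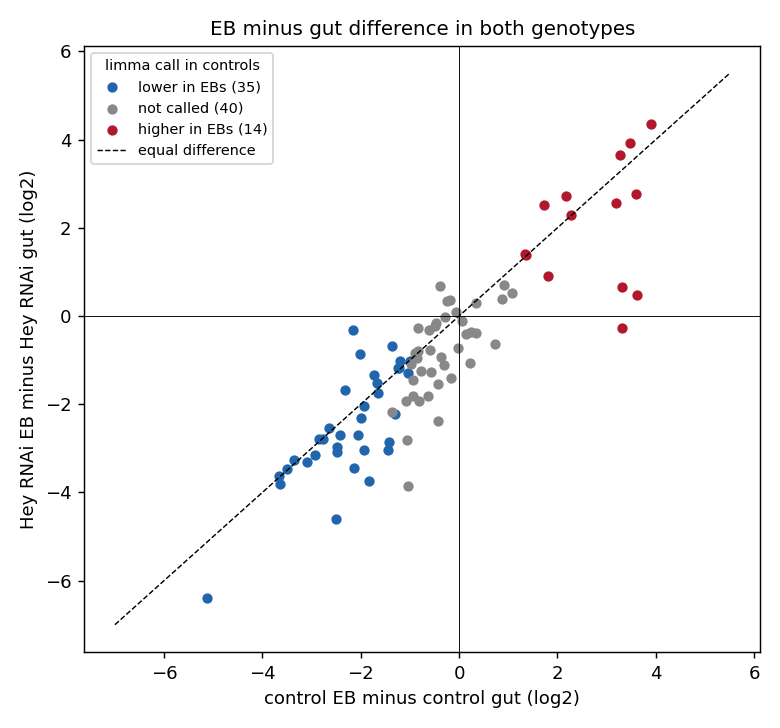
Each point is 1 of the 89 transcripts, placed by its log2 difference between EBs and guts in controls (x) and after Hey RNAi (y), coloured by the limma call in controls; the dashed line marks equal differences. Points spread about the line over a range from -5.13 to 3.91 in controls. Of the 89, 19 lie at least 1 log2 unit below it and 3 at least as far above it. The 19 include 3 of the 14 transcripts higher in control EBs, which lie near 0 after Hey RNAi.

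The lists that met the limits of only 1 tissue are given side by side, with no test, because each list was chosen on arrays that also enter the tissue comparison. Of the 476 transcripts that met only the gut limits, 74.2% were lower and 1.68% higher in control EBs than in control guts. Of the 1376 that met only the EB limits, 6.98% were lower and 36.6% higher. The 89 transcripts, at 39.3% and 15.7%, lay between these lists. Of the 175 transcripts raised in both tissues by the mirrored rule, 14.9% were lower and 33.7% higher in control EBs.

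In the 3 classes of the control comparison, the median changes in guts and in EBs were -1.42 and -1.89 for the 35 transcripts lower in EBs. They were -1.26 and -1.89 for the 40 not called, and -1.57 and -1.91 for the 14 higher in EBs. The EB medians were close to each other with all 12 arrays, but not without Hey RNAi EB 1, at -1.57, -1.66 and -2.29, or without control EB 1, at -1.62, -1.87 and -2.10. Median levels in control EBs were 9.49, 9.95 and 12.20 in these classes, in the same order.

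FBtr0076001 had the lowest EB level relative to guts among the 89. Control guts were at 13.05, 13.44 and 12.57, Hey RNAi guts at 11.67, 11.93 and 11.03, control EBs at 8.57, 7.34 and 7.76 and Hey RNAi EBs at 4.98, 5.19 and 5.29. All 6 gut arrays were thus above all 6 EB arrays, and within each tissue the genotypes did not overlap. Control EBs differed from control guts by -5.13 ± 0.35 (SE; limma adjusted p = 3.14e-06), and Hey RNAi EBs differed from Hey RNAi guts by -6.40 ± 0.35 (SE; limma adjusted p = 1.02e-06). Its mean in Hey RNAi EBs was among the dimmest on the arrays, with 4.94% of transcripts dimmer, so the size of its EB fall rests on a level near the lower end of the scale. The mean in Hey RNAi EBs was in the dimmest 10% for 8 of the 89, and the mean in Hey RNAi guts for 5.

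Among the 14 transcripts higher in control EBs, the EB minus gut difference after Hey RNAi ranged from -0.27 to 4.36. Transcripts from both ends of that range are given here. Another with no call after Hey RNAi lay between them, at 0.90 (limma adjusted p = 0.0386), under 2-fold. FBtr0077383 kept its tissue difference. It stood at 10.22, 10.30 and 10.03 in control guts and 7.99, 7.83 and 7.99 in Hey RNAi guts, against 13.96, 14.15 and 14.17 in control EBs and 13.03, 11.91 and 11.97 in Hey RNAi EBs. Its Hey RNAi EBs thus remained above its control guts. The EB minus gut difference was 3.91 ± 0.27 (SE; limma adjusted p = 3.5e-06) in controls and 4.36 ± 0.27 (SE; limma adjusted p = 1.78e-06) after Hey RNAi.

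FBtr0083252 had the largest EB fall of the 89 and no tissue call after Hey RNAi. Control guts were at 10.22, 10.20 and 10.65 and Hey RNAi guts at 9.25, 9.44 and 9.17, while control EBs were at 13.51, 13.85 and 13.67 and Hey RNAi EBs at 8.85, 9.42 and 8.78. The Hey RNAi arrays of both tissues thus overlapped, although control EBs were far above every other group. The difference between EBs and guts was 3.32 ± 0.21 (SE; limma adjusted p = 2.52e-06) in controls and -0.27 ± 0.21 (SE; limma adjusted p = 0.331) after Hey RNAi. Its gut change of -1.07 was just past the limit, against -4.66 in EBs, and it left the list under another scaling of the arrays.

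FBtr0082551 showed the same pattern. It fell from 10.03, 10.28 and 10.47 to 9.14, 9.33 and 8.66 in guts and from 13.68, 14.04 and 13.91 to 8.62, 10.53 and 9.44 in EBs. The difference between EBs and guts was 3.62 ± 0.40 (SE; limma adjusted p = 5.53e-05) in controls and 0.48 ± 0.40 (SE; limma adjusted p = 0.347) after Hey RNAi. FBtr0083453 was dimmer, at 9.17, 10.26 and 10.63 in control EBs and 5.03, 6.74 and 7.29 in Hey RNAi EBs, and had differences of 3.31 ± 0.58 (SE; limma adjusted p = 0.00104) and 0.66 ± 0.58 (SE; limma adjusted p = 0.38). For this one, the second difference was 1.40 (adjusted p = 0.0303) with each array centred on its median and 1.60 (adjusted p = 0.00733) with the array set as a block, and on the deposited values it was 1.35 (adjusted p = 0.0641), so whether it was called depended on the setting. For none of these does a missed threshold show that both tissues were equal.

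**Figure D3:**
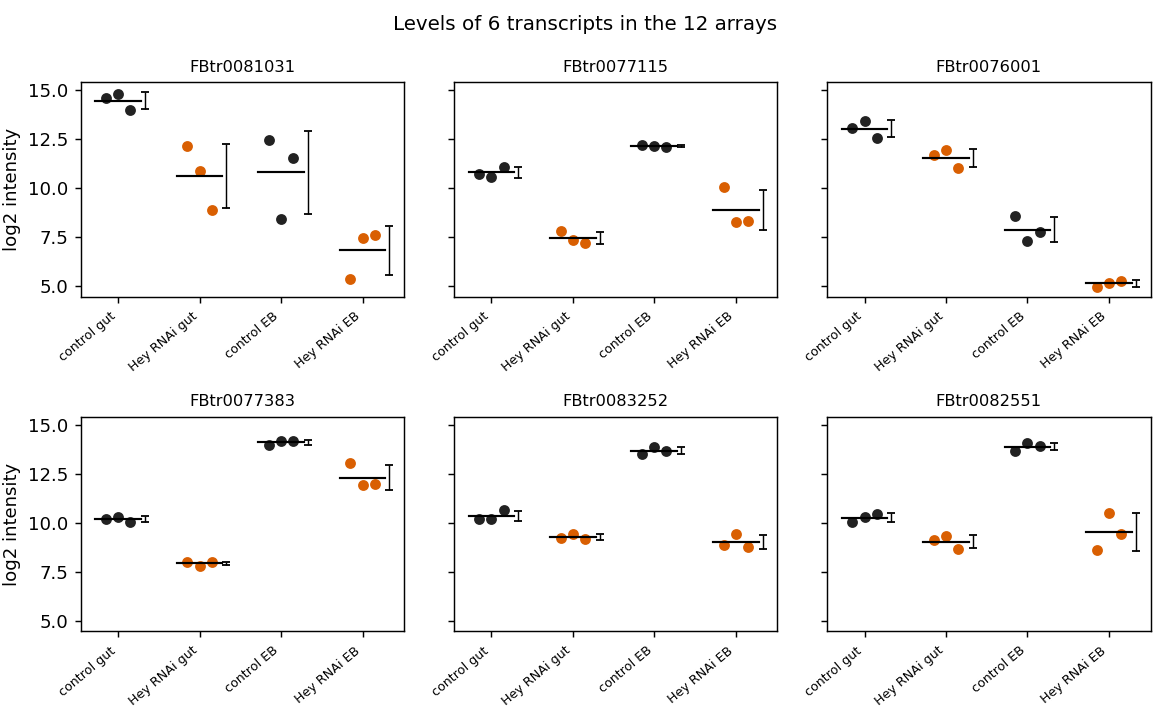
Log2 intensity (y) of 6 transcripts in the 4 groups of 3 arrays (x); points are arrays, black for controls and orange for Hey RNAi, horizontal lines are group means and bars are ± 1 SD (n = 3). FBtr0081031 and FBtr0076001 were highest in control guts and the other 4 in control EBs, and the Hey RNAi groups of FBtr0083252 and FBtr0082551 met at about the same level in both tissues.

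Ordering the 4 group means gave 2 common patterns. The rule puts each Hey RNAi mean below that of its own control, so only orders that keep this could occur. In 35 transcripts the order from high to low was control gut, control EB, Hey RNAi gut, Hey RNAi EB, so that genotype came before tissue. In 26 it was control gut, Hey RNAi gut, control EB, Hey RNAi EB, so that tissue came before genotype. The remaining orders, which held 10, 7, 7 and 4 transcripts, mostly began with control EBs. The lowest mean had to be that of a Hey RNAi group by the rule. It was that of Hey RNAi EBs in 68 of the 89 and of Hey RNAi guts in 21. Neither the orders nor this split were counted over all transcripts. For 28 transcripts (31.5%) all 6 Hey RNAi arrays lay below all 6 control arrays, against 1.1% of all transcripts, a count that the rule itself favours.

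**Figure D4:**
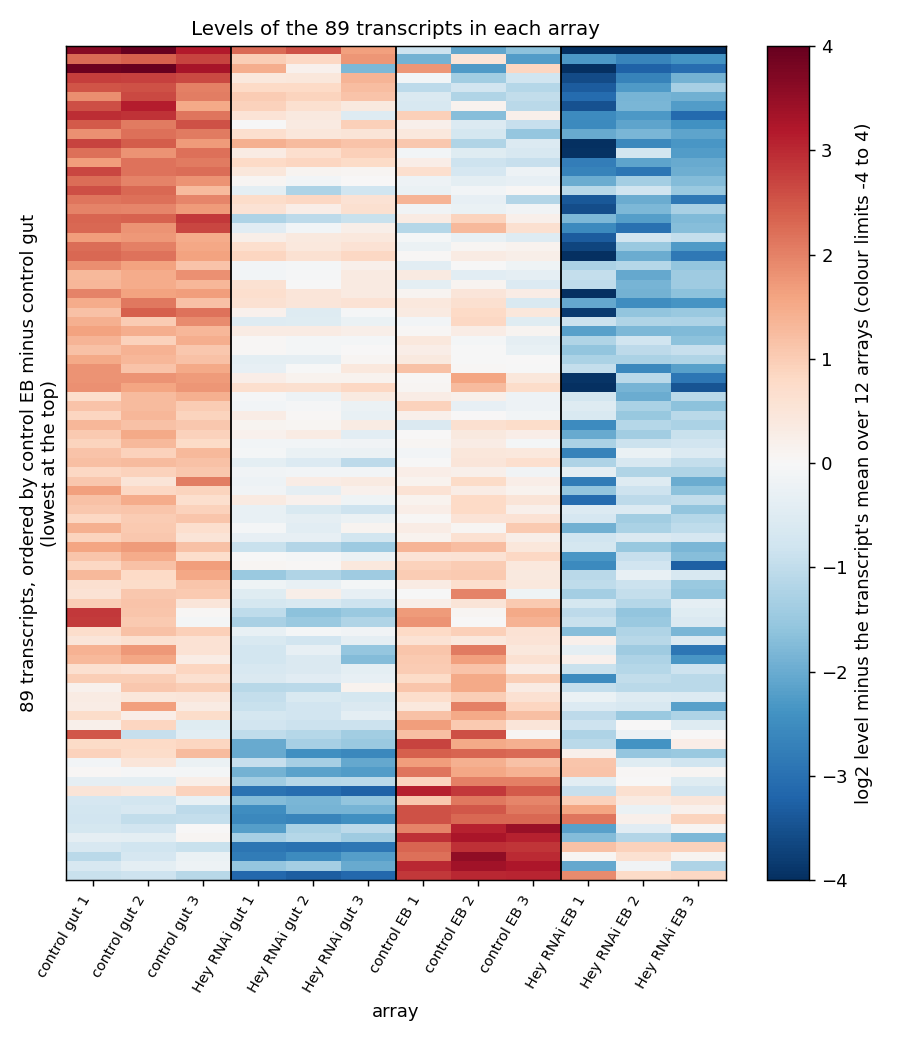
Rows are the 89 transcripts, ordered from the lowest to the highest difference of control EBs minus control guts, columns are the 12 arrays, and colour gives the log2 level minus the mean of that transcript over 12 arrays, with colours cut off at -4 and 4. Control guts are the highest group at the top and control EBs at the bottom, and Hey RNAi EB 1 stands out as darker blue in many of the upper rows.

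Some single arrays departed from the others of their group in these classes, in opposite directions for Hey RNAi EB 1. Shares over all transcripts were not computed for these counts. Over the 35 transcripts lower in control EBs, Hey RNAi EB 1 was the lowest of its group in 20 and the highest in 7. Control EB 1 was the highest in 21 and the lowest in 7, and control gut 3 the lowest in 21 and the highest in 9. Over the 14 higher in control EBs, Hey RNAi EB 1 was the highest of its group in 8 and the lowest in 4. Control EB 1 was the lowest in 8 but the highest in 6, and control gut 3 the highest in 8 but the lowest in 5. For control EB 1 and control gut 3 the split in this small class was thus near even. In levels, Hey RNAi EB 1 had a median of 6.44 over the first class, against 7.58 and 7.61 in Hey RNAi EB 2 and 3, and of 10.92 over the second, against 10.38 and 9.68. Without Hey RNAi EB 1, 82 of the 89 were at least 2-fold lower in EBs. The count was also 82 without control EB 2 and 83 to 87 without each other EB array, so it did not set Hey RNAi EB 1 apart.

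Within the sets of arrays of like deposited mean, where 1 control and 1 Hey RNAi array of a tissue could be compared, all 89 transcripts were lower with Hey RNAi in each of the 5 pairs. This follows from the rule, and the sizes are descriptive. The medians were -1.52, -1.28 and -1.41 in the gut pairs and -2.14 and -1.78 in the EB pairs. A fall of at least 2-fold was measured for 66 to 80 of the 89 in these pairs.

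Only as a description of the same contrasts, 44 of the 89 passed the limma limits as lower in Hey RNAi guts, where 1.43% of all transcripts passed, and 85 as lower in Hey RNAi EBs, where 9.46% passed. These counts share 1 estimate of the spread over guts and EBs, and EBs varied more, with a median SD over the 89 of 0.27 and 0.20 in control and Hey RNAi guts against 0.36 and 0.56 in control and Hey RNAi EBs. When the 6 arrays of each tissue were fitted alone, 85 passed in guts (3.33% of all) and 41 in EBs (4.5% of all). In those fits 40 of the 89 passed in both tissues, and the count over all transcripts was also 40. Every transcript that passed in both was thus among the 89. The rule used the same arrays and the same 2-fold limit, so this count is no separate measure of the 89. The tissue in which more of the 89 passed thus depended on the arrays fitted.

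The deposited gut means, which the authors normalized on a log2 scale, were lower with Hey RNAi for all 89 transcripts, with a median difference of -1.40. For 77 of them the difference was at least 1 log2 unit, as for 3.7% of all transcripts. These means come from the same arrays and are no independent measurement.

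Some of the 89 had nearly the same profile over the arrays. Consecutive identifiers formed 4 pairs with 8 members, whose levels correlated over the 12 arrays at 0.81 to 0.99. FBtr0076109 stood at 12.67, 12.54 and 11.99 in control guts and 6.24, 8.38 and 7.49 in Hey RNAi EBs, and its neighbour in the identifier list, FBtr0076110, at 13.02, 12.81 and 12.34 and at 7.10, 9.29 and 8.53. Hey RNAi EB 2 was the highest of its group for both. Whether they share a gene or probes was not tested.

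FBtr0086562 and FBtr0086513, whose identifiers are not consecutive, had nearly the same profile over the 12 arrays (r = 0.994). Levels were less alike in some arrays, at 5.28 and 5.78 in Hey RNAi gut 3. In the authors' normalized means, control guts stood further apart, at 5.64 and 7.63. Control guts were at 9.59, 7.88 and 6.83 for the first and 9.79, 8.05 and 6.91 for the second, and control EBs at 8.47, 6.84 and 8.28 and at 8.79, 7.02 and 8.38. Both thus showed the same wide spread within control guts, of 1.39 and 1.45 (SD, n = 3), and fell in both tissues. Deviations from the group means entered the rule only through the demand that arrays of both genotypes do not overlap. They correlated at 0.98 between these transcripts over the 12 arrays. By a limit of 0.95, chosen after the values were seen, 5 pairs with 10 members deviated together in this way. Over all pairs of the 89 the mean correlation of deviations was 0.03, and over all transcripts 0.004, as a description over shared arrays. Within the 35 transcripts lower in control EBs it was 0.14 over the 12 arrays, 0.15 over the EB arrays and 0.07 over the gut arrays. Over the 12 arrays it was 0.05 within the 40 not called and 0.08 within the 14 higher in control EBs.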

How the data were processed

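Amplified RNA carrying Cy3 was measured on 1-colour NimbleGen arrays. The authors extracted the data in NimbleScan and normalized them in ArrayStar, and the submitters' notes name RMA. The deposited matrix holds 1 linear intensity per transcript and array, and whether these are the values before or after normalization is not given in the sources used here. The authors' deposited log2 group means of guts were used only where named, and their folds, p-values and t values were not used. Intensities were log2 transformed and quantile normalized, and tested in limma 3.58.1 (R 4.3.3) with a mean for each of 4 groups (8 residual degrees of freedom), Benjamini-Hochberg adjusted over 15473 transcripts, with limits of 0.05 and 2-fold, without a filter on dim transcripts. Scripts were tested on simulated data. Guts and EBs share 1 estimate of the spread in this fit. The members and lists were chosen with earlier results of these data known. Transcripts named by rule were the 2 with the largest fall in the weaker tissue. Same-numbered EB arrays deviated together from their group means (r = 0.18, 0.32 and 0.13), which was taken as pairing by number. In guts (0.17, 0.005 and 0.26) not every pair did. By deposited mean, however, each same-numbered gut pair shared a set, as did EB pairs 1 and 2, but EB pair 3 did not. Whether arrays were paired is thus not settled. The main fit held no pairing, which entered only as the replicate block among the alternatives. Alternatives covered the scaling, a filter on dim transcripts, the arrays fitted, blocks, array weights, the fold limit and each array left out.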

Additional observations from a re-analysis of the deposited data

How the results depend on the processing

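The rule kept 59 transcripts on the deposited values with no added normalization, 234 with a limit of 1.5-fold and 20 with 3-fold, and 84 to 123 when each array was left out. Of the 89, 56 were kept under all 3 scalings, 50 in all 12 sets with an array left out, and 40 in both. The counts lower in Hey RNAi guts, 44 in the main setting (1.43% of all transcripts), were 27 with each array centred on its median (0.924% of all), 14 on the deposited values (0.517%), 85 with only the 6 arrays compared (3.33%), 81 with array weights (3.55%) and 22 to 68 with an array left out. They were 26 and 22 without control gut 1 and 2, 25, 22 and 27 without Hey RNAi gut 1, 2 and 3, and 68 without Hey RNAi EB 1. The counts lower in Hey RNAi EBs, 85 in the main setting (9.46% of all), were 55 on the deposited values (6.1%), 41 with only the 6 arrays compared (4.5%) and 72 to 84 with an array left out. The cause was not tested, except that the fits of 6 arrays do not share the spread of both tissues. The tissue counts stayed within 1.5 times the main value in every alternative. With an array left out they were 12 to 14 and 31 to 37 for higher and lower in control EBs, and 8 to 11 and 43 to 47 after Hey RNAi. The replicate block gave 14, 37, 10 and 48 for these, 44 in guts and 85 in EBs, and changed no other call by over 1.5 times. Shares over all transcripts are not given for the counts with an array left out or with the replicate block. Whether those counts moved with the 89 or with calls over the whole array can therefore not be read from them. Requiring a fall in every same-numbered pair kept 109 transcripts. Over the tissue differences of the 12 named transcripts, no called direction turned in any setting.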
